A study of Mus musculus with 16 samples.

Results

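The 4 Hox clusters of the mouse genome were examined for the positions at which the DNA methyltransferase Dnmt1 had left its mark in embryonic stem cells. The members were the 39 protein-coding genes whose symbol is Hoxa, Hoxb, Hoxc or Hoxd followed by a number, chosen by name from the RefSeq annotation of the mm10 genome (GRCm38.p6) out of 21883 protein-coding genes and 34610 protein-coding and long non-coding genes. Hoxa held 11 genes on chromosome 6 (chr6:52155367-52260880), Hoxb held 10 on chromosome 11 (chr11:96194316-96368254), Hoxc held 9 on chromosome 15 (chr15:102921131-103036856) and Hoxd held 9 on chromosome 2 (chr2:74668225-74765142). Each cluster, spanning its outermost gene ends, was set against the 500 kb on either side of it.

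All 16 libraries came from E14tg2a, a mouse embryonic stem cell line, into which Ado-6-azide, a synthetic donor of an azide-bearing group, was electroporated at 1 mM, with DNA taken 3 h later. The knock-in cells carried the N1580A substitution on 1 of their alleles of Dnmt1 beside a wild-type allele, so that only part of the enzyme in a cell was the altered form, and the sources used here do not say whether the line was a single clone. The groups were 3 libraries of heterozygous knock-in cells (Het), 2 knock-in libraries each on day 0 (naive cells in serum, LIF and both kinase inhibitors), day 2, day 4 and day 8 after the inhibitors were withdrawn, and 3 libraries (wild type) and 2 libraries (wild-type control) of cells with unaltered Dnmt1, which also received the donor. The labels do not say how both wild-type sets differ, nor in which medium the Het cells stood when they were treated. Nothing says that libraries of a group came from separate cultures, and p-values therefore reflect at most how far these libraries spread. Each table lists the genome positions with at least 1 read and the number of reads there, called listed positions and reads below.

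Hox genes encode homeodomain transcription factors that give cells their place along the body axis, and in each cluster the genes lie in the order in which they are used, from paralogue group 1 at the anterior end to group 13 at the posterior end. In embryonic stem cells the clusters are known as silent, CpG-rich domains held by Polycomb proteins, with little DNA methylation at their CpG islands. Dnmt1 copies methylation onto newly replicated DNA, and mouse embryonic stem cells kept with both kinase inhibitors are known for a low level of DNA methylation that rises once the inhibitors are removed.

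Promoters, the sites at which Hox CpG islands are known to lie, showed on the sequence itself where the mark was and was not found. RefSeq promoter windows (GRCm38.p6, 250 bases before to 50 after a transcript start) matched 22 of the 39 genes with 24 windows. Most of these lay in Hoxa and Hoxd, while Hoxb was matched only at Hoxb1, Hoxb4 and Hoxb8, and Hoxc only at Hoxc4. The windows held 4 to 45 CpGs each, with a median of 14.5 against 7 in the other 32827 windows. Of the 86825 listed positions that fell in any promoter window in the 16 libraries, all lay at the C of a CpG, and 0 lay elsewhere. If the processing placed reads at CpGs, this count was fixed in advance, and it is no test of where the mark falls. Of 416 CpGs in the Hox windows, 64 were listed in at least 1 of the 11 knock-in libraries. The richest pair of windows and the 3 with the most listed CpGs are printed 5′ to 3′ on the strand of the gene, in lower case, with each CpG listed in at least 1 knock-in library in capitals. They are Hoxa13 (chr6:52260831-52261130, minus strand, 45 CpGs), Hoxd13 (chr2:74667975-74668274, plus strand, 37 CpGs), Hoxa10 (chr6:52234890-52235189, minus strand, 21 CpGs), Hoxd12 (chr2:74674763-74675062, plus strand, 13 CpGs) and Hoxa7 (chr6:52218524-52218823, minus strand, 9 CpGs).
Hoxa13: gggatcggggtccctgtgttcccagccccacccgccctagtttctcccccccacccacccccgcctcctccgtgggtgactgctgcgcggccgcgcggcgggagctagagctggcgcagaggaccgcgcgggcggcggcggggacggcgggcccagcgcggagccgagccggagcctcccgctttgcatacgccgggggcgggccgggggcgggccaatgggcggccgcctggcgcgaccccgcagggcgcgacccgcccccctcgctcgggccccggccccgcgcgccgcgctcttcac
Hoxd13: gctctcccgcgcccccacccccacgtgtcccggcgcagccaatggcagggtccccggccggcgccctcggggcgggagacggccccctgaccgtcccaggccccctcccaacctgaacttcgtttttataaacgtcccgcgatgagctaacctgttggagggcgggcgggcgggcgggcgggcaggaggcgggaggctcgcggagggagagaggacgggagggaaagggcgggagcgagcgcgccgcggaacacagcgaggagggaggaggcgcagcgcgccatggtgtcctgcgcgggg
Hoxa10: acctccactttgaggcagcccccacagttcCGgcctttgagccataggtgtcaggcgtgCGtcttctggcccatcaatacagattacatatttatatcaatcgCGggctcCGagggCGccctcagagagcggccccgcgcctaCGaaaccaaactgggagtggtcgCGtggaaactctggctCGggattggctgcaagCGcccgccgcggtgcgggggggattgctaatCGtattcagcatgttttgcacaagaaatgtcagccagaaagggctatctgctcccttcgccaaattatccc
Hoxd12: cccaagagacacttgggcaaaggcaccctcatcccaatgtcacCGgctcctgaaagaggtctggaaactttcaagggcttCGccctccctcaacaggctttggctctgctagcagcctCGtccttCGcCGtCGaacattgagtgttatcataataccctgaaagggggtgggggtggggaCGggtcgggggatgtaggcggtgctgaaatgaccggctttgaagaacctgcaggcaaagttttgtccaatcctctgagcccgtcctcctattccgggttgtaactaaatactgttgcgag
Hoxa7: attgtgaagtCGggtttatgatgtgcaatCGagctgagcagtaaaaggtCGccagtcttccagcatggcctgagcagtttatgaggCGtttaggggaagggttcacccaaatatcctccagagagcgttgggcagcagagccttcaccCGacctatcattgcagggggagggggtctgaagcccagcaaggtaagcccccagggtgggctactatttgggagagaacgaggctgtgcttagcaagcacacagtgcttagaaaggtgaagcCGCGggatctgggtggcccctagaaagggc

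Neither Hoxa13 nor Hoxd13, whose products pattern the digits and the genital tubercle, had any listed promoter CpG in any library, although these windows were the richest in CpGs. Hoxa10, a posterior gene of the uterus and lumbar spine, had 10 of 21 CpGs listed in the printed window, at its downstream start. They were spread over the part upstream of that start, with 7 of the 14 listings in Het replicate 1. The window at the upstream start of Hoxa10 had 4 of 12 CpGs listed. Hoxd12 had 7 of 13 and Hoxa7 had 7 of 9. Among the 12 windows at or above the median number of CpGs, 8 had no listed CpG at all: those of Hoxa5, Hoxa6, Hoxa13, Hoxd1, Hoxd3, Hoxd10, Hoxd13 and the downstream start of Hoxd11. These 12 windows had 21 of 309 CpGs listed (6.80%). All 12 CpG-poorer windows had at least 1 listed CpG, and 43 of their 107 CpGs (40.2%) were listed. No test was made between these sets of windows, which share libraries and neighbouring sequence.

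**Figure D1:**
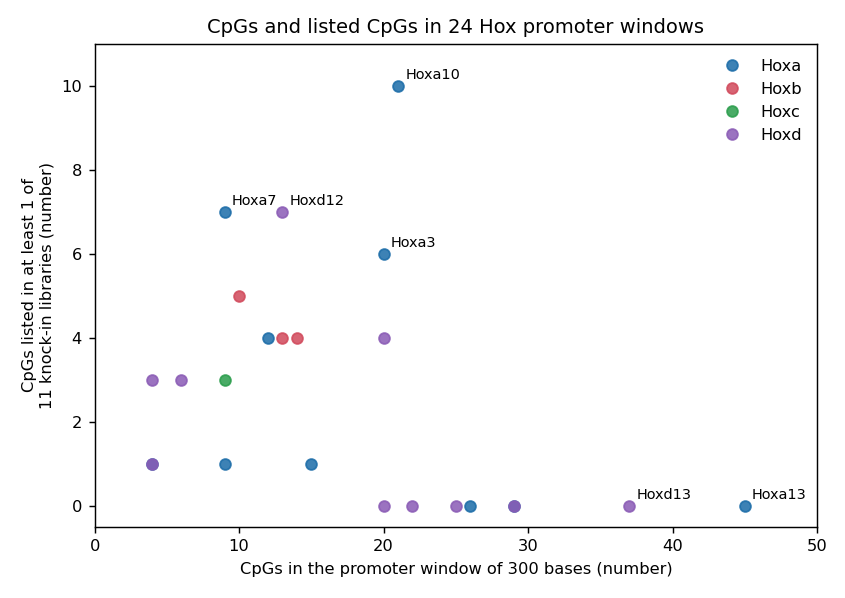
Each point is 1 of 24 Hox promoter windows of 300 bases, with the number of CpGs it holds on the x axis and the number of those CpGs listed in at least 1 of 11 knock-in libraries on the y axis, coloured by cluster. The windows with the most CpGs, Hoxa13 with 45 and Hoxd13 with 37, lie at 0, and Hoxa10 with 21 CpGs is highest at 10.

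Counted once per library, a Hox promoter CpG was listed in 83 of 4576 chances (1.81%, exact 95% binomial interval 1.45 to 2.24), against 1.92% in all other promoter windows. Split at the Hox median of 14.5 CpGs, the CpG-richer Hox windows were listed at 0.794% (0.524 to 1.15) and other windows above it at 0.250%. Of the 27 listings in the richer Hox windows, 14 lay in the Hoxa10 window of 21 CpGs and 8 in that of Hoxa3. Het replicate 1 held 9 of the 27. The CpG-poorer Hox windows were listed at 4.76% (3.61 to 6.13) and other windows below it at 7.08%. Windows were not matched further for CpG number. The 12 poorer Hox windows held 107 CpGs and the 19678 others below the median held 99905, fewer per window. On day 0, 3 of 832 Hox chances were listed (0.361%, 0.0744 to 1.05), all 3 in replicate 1 and all in CpG-poorer windows. On day 8 there were 22 of 832 (2.64%, 1.66 to 3.98) and in the Het libraries 32 of 1248 (2.56%, 1.76 to 3.60). The day 8 libraries listed more positions in all, and other promoter windows went from 0.381% on day 0 to 2.81% on day 8. In the 5 wild-type libraries 0 of 2080 Hox promoter CpGs were listed, which allows a share of up to 0.144% when the limit is set at 3 counts of the total. Other promoter windows were listed at 0.0251% in these libraries (512 of 2039140), below that limit, so the 0 does not set Hox promoters apart. CpGs of a window share libraries and neighbouring sequence, and these intervals and limits cover counting error only.

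The 11 knock-in libraries listed between 390158 positions (day 0 replicate 1) and 3423423 (Het replicate 2), with 4.05 to 11.98 reads per position, and the 5 wild-type libraries listed 960 to 9150. Day 0 was the shallowest knock-in group by far, with 390158 and 407127 positions, and day 8 listed 3065096 and 2602884. This difference in depth runs with the days. Cluster counts are therefore given beside the flanks of the same library or per 1000000 listed positions. Counts for single genes are plain numbers of positions, which rise with a library's total and show no change between days by themselves.

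Across the 11 knock-in libraries the Hox clusters as a whole carried listed positions per kb at close to the density of the sequence around them. CpGs were counted only in promoter windows, so cluster and flank densities are per kb, and listing per CpG was not compared. The 4 clusters held 6221 listed positions over 492 kb, or 11.2% of all positions in clusters and flanks, where they make up 10.95% of the bases. The ratio of positions per kb in the clusters to that in the flanks had a mean of -0.10 ± 0.36 on the log2 scale (SD, n = 11 libraries, with a pseudocount of 0.5 on each count), and the exact two-sided sign-flip permutation test against 0 gave p = 0.480. By reads it was -0.11 ± 0.34 (p = 0.329, exact permutation). Of the single clusters, Hoxb stood below its flanks, at -0.23 ± 0.28 by positions (lower in 10 of 11 libraries, exact permutation p = 0.00781, adjusted p = 0.0439 over the 10 tests of pooled and single clusters by positions and reads). By reads it was -0.23 ± 0.24 (p = 0.00879, adjusted p = 0.0439, exact permutation). The adjusted call was lost with any 1 library but day 0 replicate 1 left out (adjusted p up to 0.0879, exact permutation), with values of -0.25 to -0.17 by positions. It was also lost with 250 kb flanks (-0.17, adjusted p = 0.107, exact permutation), with a pseudocount of 1 (-0.23, adjusted p = 0.0635, exact permutation) and with libraries thinned to the size of the smallest (-0.24, adjusted p = 0.142, exact permutation). With flanks stripped of protein-coding gene bodies the Hoxb value was -0.08 (adjusted p = 0.521, exact permutation), and those of Hoxa (-0.30) and Hoxc (-0.33) did not pass either (adjusted p = 0.0806 for both, exact permutation). With the full flanks Hoxa (-0.09 ± 0.40), Hoxc (-0.20 ± 0.52) and Hoxd (0.05 ± 0.44) did not pass the test against their flanks by positions (p from 0.283 to 0.745, exact permutation). With 250 kb flanks Hoxc was called lower (-0.38 by positions, adjusted p = 0.0244, exact permutation). Without day 0 replicate 2 the Hoxd value was 0.17 (adjusted p = 0.124, exact permutation).

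The Hoxb value changed with the limits of the cluster. Hoxb13, which specifies posterior tissue such as the prostate, lies apart from the other 9 Hoxb genes, and the cluster as defined includes the wide gap between Hoxb13 and Hoxb9. When the cluster was taken from Hoxb9 to Hoxb1, a choice made after the values were seen, the Hoxb ratio was -0.52 by positions (exact permutation p = 0.000977, the smallest that 11 libraries allow, adjusted p = 0.00488). With the same limits the 4 clusters pooled were at -0.21 by positions and -0.24 by reads, which did not pass (adjusted p = 0.1245 for both, exact permutation).

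**Figure D2:**
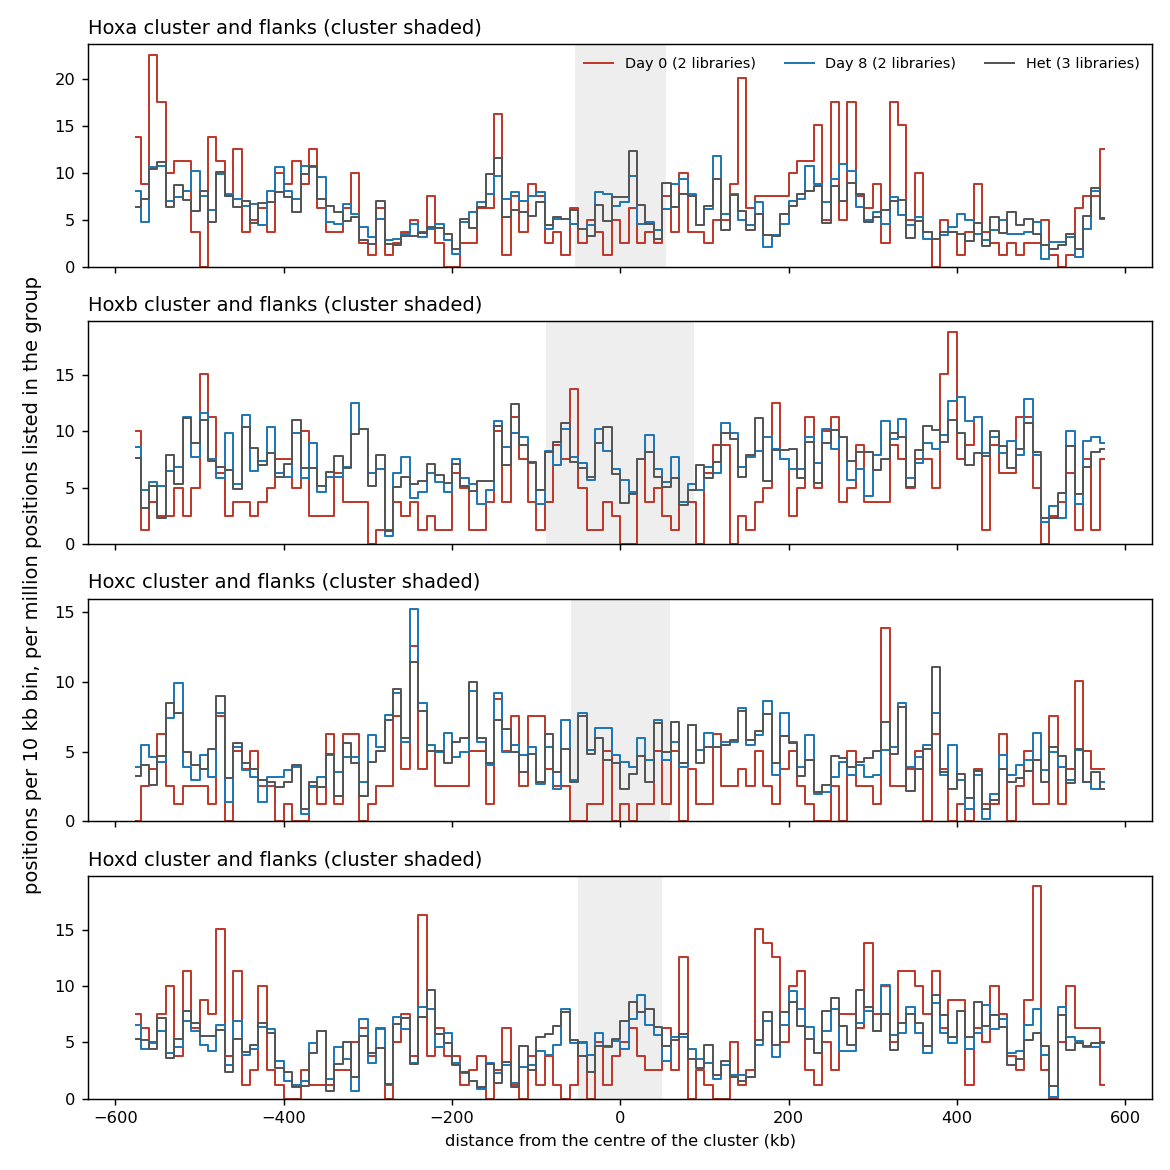
Listed positions per 10 kb bin, per 1000000 positions listed in the group, are plotted against the distance from the centre of each cluster in kb, for day 0 and day 8 (2 libraries each) and Het (3 libraries), with the cluster shaded. Day 8 and Het run close together, while day 0 is jagged, with 13 positions in the whole Hoxc cluster over both libraries against 356 on day 8.

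Over the days, the 4 clusters pooled were sparsest relative to their flanks on day 0, while Hoxb alone had 0.710 of its flank density on day 2 and 0.800 on day 0 (0.600 to 1.05, exact 95% interval for counting error). With both libraries of a day summed, the density in the 4 clusters was 0.658 of the flank density on day 0 (0.547 to 0.785, exact 95% interval for counting error), 0.853 on day 2, 1.099 on day 4 and 1.06 on day 8 (1.01 to 1.118). The Het libraries gave 1.04. By library, the ratio was 0.852 and 0.472 on day 0, 0.841 and 0.865 on day 2, 1.07 and 1.122 on day 4, and 1.08 and 1.04 on day 8. The day 0 pair differed more from each other than any other pair did, and day 0 replicate 1 stood between the day 2 values. Pearson's r of the log2 ratio with the day was 0.69 by positions over the 8 libraries (p = 0.0421, exact permutation, adjusted p = 0.105 over 10 relations) and Spearman's rho was 0.78 (p = 0.0349, adjusted p = 0.0698, exact permutation). By reads r was 0.79 (p = 0.0159, adjusted p = 0.105, exact permutation) and rho was 0.88 (p = 0.0103, adjusted p = 0.0516, exact permutation). None of the 10 Pearson relations, over pooled and single clusters by positions and by reads, passed 0.05 after Benjamini-Hochberg adjustment, with adjusted p from 0.105 to 0.497 (exact permutation). Of the 10 Spearman relations, Hoxc by reads passed (rho 0.93, adjusted p = 0.0317, exact permutation). Without the day 8 libraries, the farthest from the median day, r by positions was 0.79 (p = 0.0444, exact permutation), and without day 0 it was 0.67 (p = 0.122, exact permutation).

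**Figure D3:**
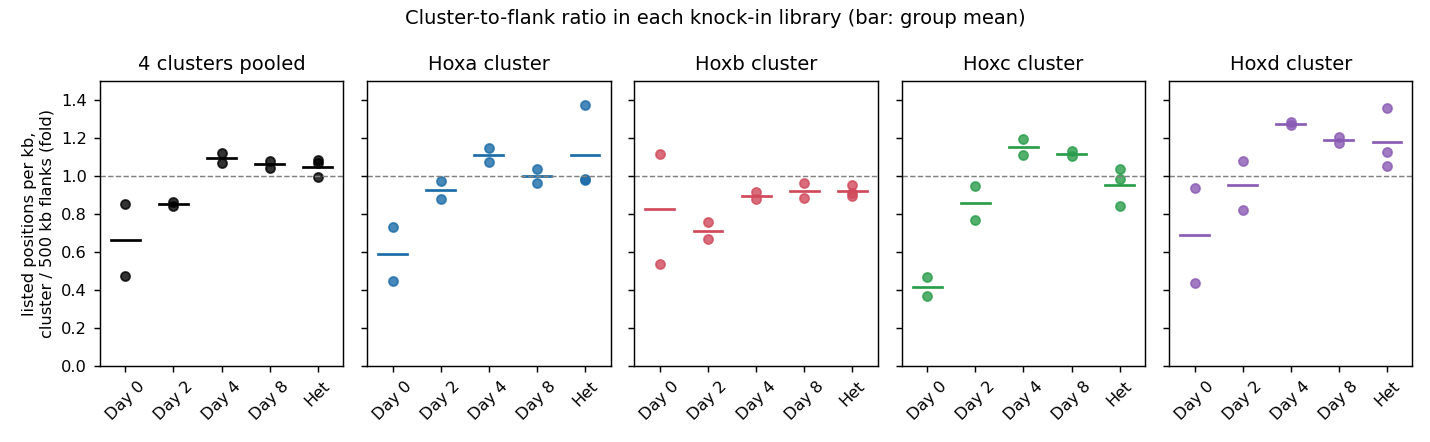
Each point is 1 knock-in library, each bar the mean of its group, and the y axis gives listed positions per kb in a cluster divided by that in its 500 kb flanks, with a dashed line at equality. The Hoxc points go from 0.467 and 0.366 on day 0 to 1.13 and 1.103 on day 8, and the Hoxb points lie below 1 in every library but day 0 replicate 1.

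Hoxc, whose genes serve the trunk, the hindlimb and the hair follicle, had the largest change of the 4 clusters. It held 8 and 5 listed positions on day 0, 46 and 64 on day 2, 132 and 169 on day 4, and 196 and 160 on day 8. In the Het libraries it held 77, 185 and 152. Per 1000000 positions listed in a library, this was 20.5 and 12.3 on day 0, 36.3 and 48.9 on day 2, 63.1 and 65.6 on day 4, and 63.9 and 61.5 on day 8. The ratio to the flanks correlated with the day at r = 0.79 (p = 0.0246, adjusted p = 0.105, exact permutation) and without day 0 at r = 0.63 (p = 0.144, exact permutation). The mean log2 ratio was 1.33 higher on day 8 than on day 0, and 2.72% of 25147 windows of 100 kb across the genome, each set against its own flanks, had a difference as large. For the 4 clusters pooled the difference was 0.73, for Hoxa 0.77, for Hoxd 0.85 and for Hoxb 0.23. Of the same windows, 9.96% had a difference as large as the pooled one, 9.21% as Hoxa, 7.50% as Hoxd and 32.7% as Hoxb.

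The clusters and their flanks were also entered as rows in the edgeR quasi-likelihood fit over all genes (8 day libraries, normalized by TMM, Benjamini-Hochberg adjusted over all rows). The common biological coefficient of variation, the fitted spread between libraries beyond counting error, was 0.488 by reads and 0.0099 by positions. By positions, p-values of this fit therefore rest mostly on counting error, although the day 0 pair held 84 and 49 positions in the 4 clusters. On day 8 against day 0, 767 of 30257 rows were called by reads (2.53%), 549 of them higher (1.81%) and 218 lower (0.72%), and 1033 of 20424 rows by positions (5.06%), 461 of them higher (2.26%) and 572 lower (2.8%). Day 4 against day 0 gave 2.94% of rows by reads and 4.48% by positions (1.86% higher, 2.62% lower), and day 2 gave 0.922% by reads and 1.15% by positions (0.455% higher, 0.69% lower). The Hoxc cluster rose by 1.87 ± 0.32 by positions (log2 fold change ± SE, adjusted p = 3.58e-06, edgeR) and by 2.64 ± 0.37 by reads (adjusted p = 0.0190, edgeR). It was already higher on day 2, by 1.35 ± 0.37 by positions (adjusted p = 0.0333, edgeR), and on day 4, by 1.90 ± 0.32 (adjusted p = 3.36e-06, edgeR). The flanks of Hoxc rose as well, by 0.42 and 0.54 by positions on day 8 (adjusted p = 0.0217 and 0.00328, edgeR). By positions the Hoxc call held in each alternative and with any 1 library left out (adjusted p at most 0.0333, edgeR), and by reads it was lost with any 1 library of day 2, 4 or 8 left out (adjusted p from 0.0845 to 0.216, edgeR).

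Hoxb, which holds the hindbrain genes Hoxb1 and Hoxb2, had 38 and 22 positions on day 0 and 395 and 305 on day 8, and rose by 0.65 ± 0.18 by positions (adjusted p = 0.0143, edgeR), close to its flanks, which rose by 0.61 and 0.30 (adjusted p = 7.66e-06 and 0.0406, edgeR). Without day 0 replicate 2 the Hoxb change was 0.32 (adjusted p = 0.568, edgeR). By reads it was 0.40 ± 0.17 (adjusted p = 0.209, edgeR), and 0.66 without day 0 replicate 1 (adjusted p = 0.00471, edgeR). Hoxa, with 20 and 12 positions on day 0 and 179 and 178 on day 8, rose by 1.05 ± 0.20 by reads (adjusted p = 0.0364, edgeR), and its change by positions was 0.58 ± 0.25 (adjusted p = 0.168, edgeR), with 1.06 without day 0 replicate 1 and 0.28 without day 0 replicate 2 (adjusted p = 0.141 and 0.771, edgeR). The Hoxa call by reads was lost when any 1 library of days 2, 4 and 8 was left out (adjusted p from 0.0879 to 0.273, edgeR). Its lower flank had a change of -0.04 by positions (adjusted p = 0.886, edgeR) and its upper flank fell by 0.32 (adjusted p = 0.0389, edgeR). Hoxd, with 18 and 10 positions on day 0 and 169 and 148 on day 8, had changes of 0.60 ± 0.26 by positions and 0.56 ± 0.40 by reads that did not pass (adjusted p = 0.184 and 0.459, edgeR). By positions the Hoxd value was 1.15 without day 0 replicate 1 and 0.26 without day 0 replicate 2 (adjusted p = 0.139 and 0.802, edgeR). By reads the value was 1.61 without day 0 replicate 1 (adjusted p = 0.000176, edgeR) and -0.05 without day 0 replicate 2 (adjusted p = 0.862, edgeR). The upper flank of Hoxd fell by 0.34 by positions (adjusted p = 0.0233, edgeR).

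Summed gene by gene, the 39 gene bodies held 53 and 31 positions on day 0, 166 and 186 on day 2, and 401 and 527 on day 4. On day 8 the sums were 563 and 466, and in the Het libraries 320, 546 and 483. With each position counted once, the bodies held 45 and 26 on day 0, 519 and 431 on day 8, and 287, 498 and 434 in Het. Summed over the 11 knock-in libraries, the genes ranged from 2.30 listed positions per kb (Hoxc11) to 37.9 (Hoxb13), with a median of 10.1 against 11.8 over 21627 protein-coding genes, and 17 of 39 lay at or above that protein-coding median. Hox genes are short, with a median length of 3.74 kb against 17.3 kb, and 10 of them overlap another Hox gene, so that a position in the overlap counts for both. On day 0, 17 of the 39 had no listed position, where 19.2% of protein-coding genes had none, and each day 0 library listed 17 Hox genes. Day 2 libraries listed 29 and 28, day 4 libraries 37 and 39, day 8 libraries 39 and 36, and Het libraries 36, 38 and 39. Of the 17 genes without a day 0 position, 16 were on day 8 at or below 3.76 positions per 1000000 listed, the level of 3 positions in the day 0 pair, so no fold can be given for them. Hoxb6 was at least 1.13-fold higher against that floor.

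By paralogue group, the pooled bodies of the anterior genes carried more positions per kb than those of the posterior ones. Most of the 154 kb of the anterior pool lay in Hoxa3 (44.0 kb), Hoxb3 (40.8 kb) and Hoxd3 (36.3 kb). Hoxa3 spans Hoxa5 and Hoxa6, which count as central too. Single genes overlapped over the 11 knock-in libraries, from 4.604 (Hoxb2) to 21.2 per kb (Hoxd4) among anterior and 2.30 (Hoxc11) to 37.9 (Hoxb13) among posterior genes. Groups 1 to 4 had 1.90 ± 0.26 positions per kb per library on day 8 (SD, n = 2), groups 5 to 8 had 1.63 ± 0.22 and groups 9 to 13 had 1.43 ± 0.15. In the Het libraries the values were 1.64 ± 0.46, 1.30 ± 0.38 and 1.31 ± 0.31 (SD, n = 3), and on day 0 they were 0.156 ± 0.064, 0.072 ± 0.025 and 0.119 ± 0.056 (SD, n = 2). The pooled posterior bodies lay below the pooled anterior ones in each of the 11 libraries, at 0.604 to 0.931 of their density. The pooled central bodies lay at 0.268 to 1.01 of the anterior density, and only Het replicate 3 was above 1. These ratios were computed after the group values had been seen and were not tested. Hox gene bodies and the sequence between them had like densities on day 8, at 1.71 ± 0.22 and 1.82 ± 0.20 positions per kb (SD, n = 2).

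**Figure D4:**
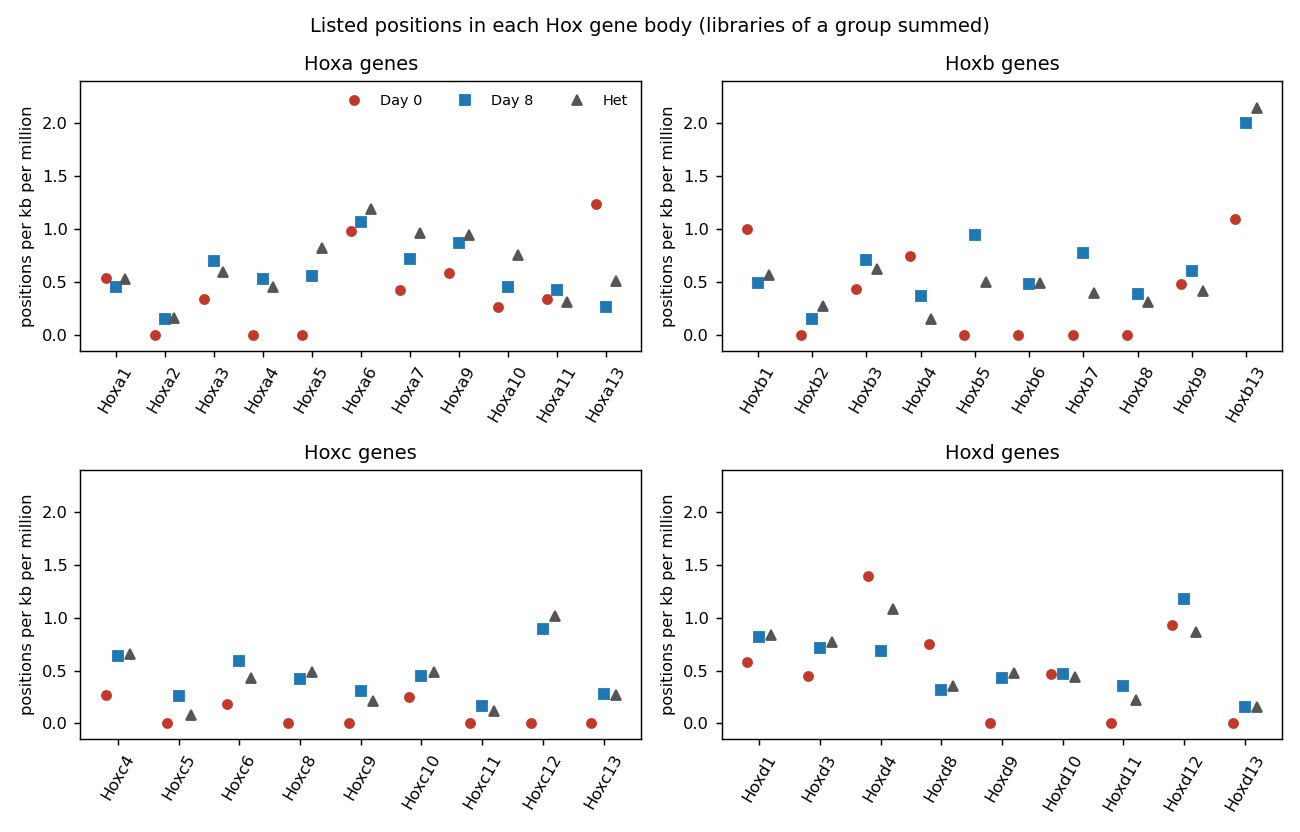
Listed positions per kb of gene body, per 1000000 positions listed in the group, are shown for each of the 39 Hox genes in day 0 (circles, 2 libraries), day 8 (squares, 2 libraries) and Het (triangles, 3 libraries), with genes in order of paralogue group. Hoxb13 is the highest on day 8 and in Het, and the day 0 symbols of 17 genes lie at 0.

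Hoxa3, the thymus and parathyroid gene and the longest Hox gene body at 44.0 kb, was the only Hox gene called on day 8 against day 0. It held 7 and 5 positions on day 0, 29 and 29 on day 2, 68 and 79 on day 4, 81 and 92 on day 8, and 61, 80 and 59 in the Het libraries. By reads it rose by 1.76 ± 0.33 on day 8 (log2, adjusted p = 0.0351, edgeR) and by 1.87 ± 0.33 on day 4 (adjusted p = 0.0317, edgeR), and its change by positions was 0.95 ± 0.38 (adjusted p = 0.143, edgeR). The read call on day 8 was lost with any 1 library of days 2, 4 and 8 left out (adjusted p from 0.0879 to 0.267, edgeR). Its gene body spans Hoxa4, Hoxa5 and Hoxa6, so these positions are shared with them. Of 35 Hox genes with enough reads to be tested on day 8, 1 was called higher and 0 lower, beside 1.81% of all rows higher and 0.72% lower. On day 4 it was again 1 higher (2.1% of all rows, with 0.839% lower) and on day 2 edgeR called 0 (0.74% of all rows higher, 0.182% lower). By positions 7 could be tested on day 8 and 0 were called.

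Among the other Hoxa genes, Hoxa6, a thoracic gene, and Hoxa9, known for its part in blood stem cells and leukaemia, were the densest, at 21.8 and 20.8 positions per kb over the 11 knock-in libraries. Hoxa6 held 1 and 2 positions on day 0, 3 and 4 on day 2, 9 and 6 on day 4, 13 and 10 on day 8, and 12, 7 and 16 in Het. Hoxa9 held 1 and 1, 7 and 7, 6 and 15, 11 and 10 on the same days, and 8, 8 and 15 in Het. Per 1000000 listed positions, Hoxa9 stood at 2.56 and 2.46 on day 0 and at 3.59 and 3.84 on day 8, with Het replicate 2 below both day 0 libraries at 2.34. Neither gene was called (Hoxa6 1.08 ± 1.13 and Hoxa9 -0.63 ± 1.17 by reads on day 8, adjusted p = 0.635 and 0.809, edgeR). Hoxa2, which patterns the second pharyngeal arch, was the sparsest at 5.38 per kb, with 0 positions in both day 0 libraries, 2 and 0 on day 2, 4 and 2 on day 4, 1 and 1 on day 8, and 1 in each Het library.

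In Hoxb, the gene Hoxb13 was at 37.9 positions per kb, and 99.1% of protein-coding genes were as low or lower. It held 2 and 0 positions on day 0, 2 and 4 on day 2, 2 and 13 on day 4, 16 and 10 on day 8, and 12, 10 and 16 in Het. Per 1000000 listed positions this was 5.13 and 0 on day 0 and 5.22 and 3.84 on day 8, so that the groups overlapped, and the change of 2.23 ± 1.45 by reads did not pass (adjusted p = 0.409, edgeR). Hoxb5, an anterior trunk gene, had 16.1 per kb, with 0 positions in both day 0 libraries, 4 and 3 on day 2, 5 and 6 on day 4, 8 and 6 on day 8, and 3, 5 and 2 in Het (adjusted p = 0.0788 by reads, edgeR). Hoxb2, a hindbrain gene, was the sparsest at 4.604 per kb, with no position on days 0 and 2, 1 and 3 on day 4, 2 and 0 on day 8, and 1, 2 and 2 in Het.

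In Hoxc, Hoxc12 had 19.1 positions per kb in the shortest Hox gene body (1.78 kb) and Hoxc4, the most anterior Hoxc gene, had 13.6. Hoxc12 had none on day 0, 1 and 1 on day 2, 6 and 3 on day 4, 8 and 1 on day 8, and 4, 4 and 6 in Het. Hoxc4 held 3 and 1 on day 0, 12 and 9 on day 2, 37 and 31 on day 4, 42 and 26 on day 8, and 24, 38 and 33 in Het. Per 1000000 listed positions it stood at 7.69 and 2.46 on day 0, 9.47 and 6.88 on day 2, and 13.7 and 9.99 on day 8, so that day 0 overlapped day 2. Its changes on day 8 were 1.18 ± 0.63 by positions and 1.60 ± 0.95 by reads and did not pass (adjusted p = 0.318 and 0.361, edgeR). Hoxc11, expressed in the hindlimb and lumbar region, was the sparsest Hox gene of all, with 5 positions over the 11 knock-in libraries, none before day 4.

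In Hoxd, Hoxd4, an anterior gene of the hindbrain and neck, had 21.2 positions per kb. It held 6 and 2 on day 0, 8 and 10 on day 2, 14 and 24 on day 4, 17 and 11 on day 8, and 13, 24 and 23 in Het, and its change on day 8 was -1.08 ± 0.63 by positions (adjusted p = 0.360, edgeR) after scaling to the library. Hoxd12, a limb gene, had 20.4 per kb, with 2 and 0 on day 0, 0 and 2 on day 2, 5 and 10 on day 4, 9 and 9 on day 8, and 1, 9 and 8 in Het. Hoxd13 was the sparsest at 2.96 per kb, with none on days 0 and 2, 1 and 2 on day 4, 3 and 0 on day 8, and 2, 1 and 1 in Het, beside a promoter window of 37 CpGs of which none was listed.

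The wild-type libraries give the background at these loci. The Het libraries listed 727 times as many positions in clusters and flanks together as the 3 wild-type libraries (geometric means, n = 3 and 3, exact permutation p = 0.1, the smallest these groups allow). The 8 day libraries listed 159 times as many as the 2 wild-type controls (exact permutation p = 0.0222, the smallest these groups allow). Over the whole genome the Het libraries listed 1641850 to 3423423 positions and the wild type 960 to 5625. The day libraries listed 390158 to 3065096 and the controls 3501 to 9150, so these folds are not particular to the Hox loci. All 5 wild-type libraries together held 22 listed positions in the clusters and 54 in the flanks. The clusters therefore took 28.9% of them (exact 95% binomial interval 19.1 to 40.5), where they took 11.2% in the knock-in libraries and make up 10.95% of the bases. By library the share was 36.4%, 33.3% and 18.8% in the wild type and 36.4% and 15.4% in the controls, against 10.9% to 11.8% in Het and 5.49% to 12.1% in the day libraries, without overlap. The exact permutation test of these shares, chosen after they were seen, gave p = 0.1 for Het against wild type and p = 0.0222 for the day libraries against the controls, both the smallest possible. Hoxd took 8 of the 22 and Hoxa 6, and Hoxb, the longest cluster, took 3.

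**Figure D5:**
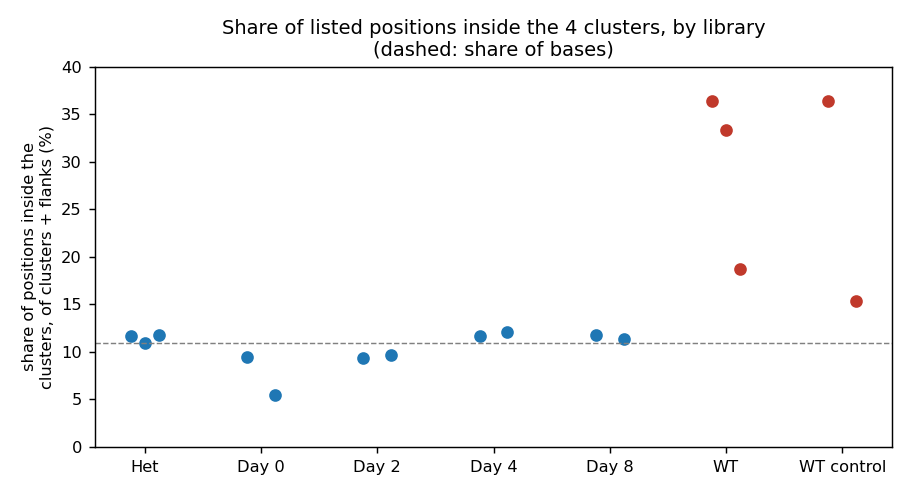
Each point is 1 library, and the y axis gives the share of its listed positions in clusters and flanks together that lay inside the 4 Hox clusters, in percent, with the share of bases dashed. The 5 wild-type points lie between 15.4% and 36.4%, above all 11 knock-in points, and rest on 1 to 12 cluster positions each.

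The wild-type positions lay in 8 Hox genes: Hoxa3 (3 positions), Hoxd3 (4), Hoxc11 (2), and Hoxa9, Hoxa10, Hoxc6, Hoxc10 and Hoxd9 (1 each), with 8 more between genes. In wild-type replicate 1, 3 of the Hoxd3 positions lay side by side, at bases 74740444, 74740446 and 74740458 of chromosome 2. Most had 1 to 3 reads, and a Hoxd3 position in control replicate 1 had 9. Hoxc11, the sparsest Hox gene in the knock-in cells, was the one gene listed in both controls. Of the 22 cluster positions, 7 were also listed in at least 1 knock-in library (31.8%, exact 95% binomial interval 13.9 to 54.9), beside 32 of 54 in the flanks (59.3%, 45.03 to 72.4) and 67.0% of all 23097 wild-type positions. The other 15 appear in none of the 11 knock-in libraries. None of the 22 lay in a Hox promoter window.

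Genes that surround the clusters or act on them were counted by list in the same fit for day 8 against day 0, where the median change over all rows was 0.03 by positions (log2). Of all rows, 1.81% were called higher and 0.72% lower by reads, and 2.26% higher and 2.8% lower by positions, and list counts stand beside these shares. Of 20 neighbours and long non-coding RNAs of the clusters, such as Evx1, Hotair and Hottip, 0 were called by reads (20 tested) or by positions (12 tested, median 0.18), and this list overlaps the clusters. Among 14 genes upstream of Hox expression, those of retinoic acid and Cdx signalling, Rarb, a retinoic acid receptor, fell by 0.75 by reads (adjusted p = 0.0298, edgeR) and by 0.73 by positions (adjusted p = 5.19e-08, edgeR). The call by positions held with any 1 library left out, and that by reads was lost without any 1 library of days 2, 4 or 8 (adjusted p up to 0.249, edgeR). Rarg, another receptor of the family, was called higher by positions, with 0 and 1 positions on day 0 and 31 and 33 on day 8 (adjusted p = 0.0360, edgeR; median of the list 0.17). The Rarg call was lost without day 0 replicate 1 (log2 change 2.14), day 0 replicate 2 (7.43) or day 8 replicate 2 (2.88), with adjusted p of 0.353, 0.153 and 0.101 (edgeR).

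Among 26 chromatin genes that act on the clusters, 2 of 26 tested were called higher by reads and 4 of 23 by positions (median 0.36), and 0 lower. Kdm2b, which brings Polycomb to CpG islands, rose by 1.17 by reads and by 0.67 by positions (adjusted p = 0.0234 and 0.0250, edgeR). Cbx7, a Polycomb reader, rose by 1.23 and Jarid2, a Polycomb cofactor, by 0.74 by positions (adjusted p = 0.00745 and 0.0297, edgeR). Mtf2, a Polycomb recruiter, had 0 positions on day 0 and 31 and 26 on day 8, at least 2.67-fold higher against a floor of 3 positions in the day 0 pair. By positions, Kdm2b and Jarid2 were not called without either day 0 library or without day 8 replicate 1 (adjusted p from 0.0889 to 0.395, edgeR), and Mtf2 was not called without either day 0 library (adjusted p = 0.150 and 0.196, edgeR). Cbx7 was not called without day 0 replicate 2 (0.79, adjusted p = 0.388, edgeR) and was at 1.97 without day 0 replicate 1 (adjusted p = 0.0178, edgeR). The read calls of Kdm2b and Mtf2 were lost without any 1 library of days 2, 4 or 8 (adjusted p from 0.0845 to 0.235, edgeR). Of 50 other homeobox genes of development, 46 were tested by reads and Lhx1, a kidney and head organizer gene, was called, with 0 positions on day 0 and 20 and 15 on day 8, at least 1.64-fold higher, a call lost without any 1 library of days 2, 4 or 8 (adjusted p from 0.0886 to 0.249, edgeR). By positions 24 of them were tested and 0 called (median 0.11). All of these changes are in listed positions or reads of DNA within gene bodies, and RNA was not measured.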

How the data were processed

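Per the labels' protocols, a biotinylated oligonucleotide was clicked onto the azides, and the captured DNA was primed from it and sequenced (TOP-seq, Ion Proton). The submitters' processing notes name cutadapt 4.4, BWA 0.7.17-r1188, SAMtools 1.12 and mm10. For read filters, strand handling and removal of PCR copies, the procedure is not given in the sources used here. Per the file headers, the authors deposited chromosome, position and coverage, a whole-number count of reads, without normalization. Columns were checked for repeated positions, and there were 0.

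The members and gene lists were chosen with earlier results of these data known. Positions and reads were summed over gene bodies, clusters and flanks. Genes named singly are the 2 densest and the sparsest of each cluster, those called on day 8 and those listed in wild type. Ratios used a pseudocount of 0.5 and exact permutation over libraries. Rows were fitted with edgeR 4.0.16 (filterByExpr, TMM, glmQLFTest, adjusted p below 0.05, R 4.3.3), with DESeq2 1.42.0 as an alternative. Tested on simulated data for day 8 against day 0, the fit recovered 13% of 2-fold and 66% of 4-fold changes by reads over 30257 rows. By positions it recovered 48% and 90% over 20424 rows. Changes were planted only in rows at or above the median mean count, so recovery in sparser rows was not measured. Library totals ranged from 1640 to 25175264 reads. Replicate numbers are those of the sample titles, which some tables' names do not match, and did not pair samples. Intervals are exact at 95%. A further gene list is not reported here.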

Additional observations from a re-analysis of the deposited data

How the results depend on the processing

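By reads, the 767 rows called on day 8 (1 Hox gene) became 142 (0 Hox) with the replicate block, 0 (0 Hox) with only the 4 libraries of days 0 and 8 by edgeR, where 4076 had an unadjusted p under 0.05, and 5141 (9 Hox) with DESeq2. Leaving out 1 library each gave 0 to 7662 rows and 0 to 9 Hox genes. The highest counts came without day 0 replicate 1 (7662) or day 0 replicate 2 (7460), and the lowest without a library of days 2, 4 or 8. The cause was not tested. With the replicate block, day 2 gave 2 rows in place of 279 and day 4 gave 128 in place of 890, and the Hoxa cluster by reads was no longer called (adjusted p = 0.0649, edgeR). Correlations of same-numbered samples were -0.01 to 0.02. By positions the 1033 rows became 432 with 4 libraries, 516 with DESeq2 and 187 to 929 with 1 library left out, with 0 Hox genes called in each. The pooled cluster-to-flank ratio passed in no alternative run (adjusted p at least 0.1245, exact permutation). The fold of day libraries over wild-type controls was 101 to 251 with 1 library left out, and with either control left out p was 0.111 (exact permutation), the smallest possible. With the 4 libraries the Hoxa and Hoxc clusters by reads (adjusted p = 0.171 for both, edgeR) and the Hoxb cluster by positions (adjusted p = 0.0917, edgeR) were no longer called. Among the results above and the genes named, none changed direction in an alternative in which it was called. The low number of listed positions limits day 0 most, where single Hox genes hold 0 to 10 positions a library.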
